A study of Rattus norvegicus with 9 samples.

Results

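A pair of manganese compounds was set directly against each other in the rat striatum: 3 small RNA libraries from rats given MMT against 3 from rats given manganese chloride, 6 of the 9 libraries of the series. The libraries were chosen by their titles, and the 3 corn oil control libraries did not enter the comparison. Every file lists 1759 entries with a count each, made up of 410 tRNA genes (2 of them mitochondrial), 764 miRNAs and 585 piRNAs. The MMT rats received 4 mg/kg of MMT, equal to about 1 mg/kg of manganese, in corn oil. The MnCl2 rats received 200 mg/kg of MnCl2 tetrahydrate in physiological saline at 10 ml/kg, and the controls received corn oil at 1 ml/kg. All groups were dosed by gavage once a day, 6 days a week for 8 weeks. Compound, manganese dose and vehicle differ together between the groups, so their parts in any difference cannot be told apart, and no group given saline alone is used here. The study had 18 rats, 9 of each sex, aged 8 weeks and weighing 220 ± 20 g, with 3 rats per group and sex. The labels do not say which sex a library came from or whether it pooled rats, so p-values measure the spread between these libraries.

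MMT, methylcyclopentadienyl manganese tricarbonyl, is an organic manganese compound used as a petrol additive, and manganese chloride is a water-soluble salt. Manganese taken up in excess collects in the basal ganglia, of which the striatum is a part, and can cause a movement disorder that resembles Parkinson's disease. A miRNA is cut from a hairpin and guides silencing of mRNAs that pair with its seed, bases 2 to 8 from its 5′ end. piRNAs are best known from the germ line. Reads of this length at tRNA genes can come from tRNA fragments, which cells cut at the anticodon loop and elsewhere.

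Most of the miRNA sequences below are those with the lowest p-values among miRNAs, with relatives that share letters. miR-301b-3p and miR-301a-3p are shown instead as members of the miR-130 and miR-301 list. The capitals mark the seed.
miR-466b-5p: tATGTGTGtgtgtatgtccatg
miR-466b-2-3p: aTATACATacacacatacaca
miR-466b-3p: aTACATACacacacacatacac
miR-466c-5p: tGTGATGTgtgtatgtacatg
miR-466c-3p: tATACATGcacacatacacac
miR-6320: tGAACATGcttgtaatctcagca
miR-3551-5p: tCTTCACCatggtgtttttgacat
miR-582-5p: tACAGTTGttcaaccagttact
miR-144-3p: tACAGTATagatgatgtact
miR-216b-5p: aAATCTCTgcaggcaaatgtga
miR-301b-3p: cAGTGCAAtggtattgtcaaagc
miR-301a-3p: cAGTGCAAtagtattgtcaaagc

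The entries filed as piRNAs that had the lowest p-values are shown next, because their letters overlap. In the first 3 the capitals mark a run of 29 bases that all 3 share, in the next 3 a shared run of 30 bases, and the last entry has no capitals.
pir-64744: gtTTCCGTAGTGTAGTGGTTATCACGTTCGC
pir-64745: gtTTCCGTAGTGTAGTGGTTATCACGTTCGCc
pir-87165: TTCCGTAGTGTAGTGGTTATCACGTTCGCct
pir-63429: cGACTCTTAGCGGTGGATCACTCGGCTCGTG
pir-63875: GACTCTTAGCGGTGGATCACTCGGCTCGTG
pir-63876: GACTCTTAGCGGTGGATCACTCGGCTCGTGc
pir-63455: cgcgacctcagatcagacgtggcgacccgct

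Among tRNA genes, 3 copies of tRNA-Trp-CCA and the only copy of tRNA-Leu-TAG are shown, with the anticodon in capitals. The first is a copy with 1 of the lowest p-values, the second the copy the others are compared with, and the third the copy whose letters and values differed most from it.
tRNA-Trp-CCA trna11260 chr10: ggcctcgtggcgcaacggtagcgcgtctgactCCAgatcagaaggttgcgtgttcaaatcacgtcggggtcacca
tRNA-Trp-CCA trna3949 chr17: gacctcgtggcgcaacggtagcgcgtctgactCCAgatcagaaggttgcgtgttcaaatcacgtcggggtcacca
tRNA-Trp-CCA trna4571 chr13: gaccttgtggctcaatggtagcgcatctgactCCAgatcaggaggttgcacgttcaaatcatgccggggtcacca
tRNA-Leu-TAG trna12832 chr1: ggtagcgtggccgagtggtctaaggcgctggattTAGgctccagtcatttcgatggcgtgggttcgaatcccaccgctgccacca

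The libraries varied in depth and did not separate by compound along the main axis of variation. Total counts were 1227930, 730044 and 1543987 in MMT 1, 2 and 3, and 753383, 925950 and 989556 in MnCl2 1, 2 and 3. The deepest library, MMT 3, had the fewest entries with a count, 1342, and MnCl2 2 had the most, 1440. Along the main axis of variation, with 58.7% of the variance, MMT 3 (-17.3) and MMT 2 (10.3) formed the ends, with the MnCl2 libraries between 0.497 and 9.93. Pearson correlations of log2 CPM (read counts scaled to a common library size by TMM) ran from 0.969 to 0.987 within groups and from 0.970 to 0.990 between them, with entries and not samples as the points. miRNAs were 60.9% ± 3.74 (SD, n = 3) of the counts with MMT and 62.1% ± 3.36 (n = 3) with MnCl2, an exact permutation p of 0.6 (two-sided). Neither the tRNA share nor the piRNA share differed beyond the spread: the exact permutation p was 0.7 and 0.3, and 3 libraries against 3 allow none below 0.1. The lowest p adjusted over these and 3 other measures of the libraries was 0.84.

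No entry passed the test at this depth. Of 1759 entries, 1063 had enough counts to be tested (570 miRNAs, 410 tRNA genes and 83 piRNAs), and the 696 others held 0.133% of the counts. edgeR's quasi-likelihood test called 0 (0%) at a Benjamini-Hochberg adjusted p under 0.05, with a lowest adjusted p of 0.705, while DESeq2 also gave 0. edgeR left 33 entries higher in MMT (3.1%) and 24 lower (2.26%) with an unadjusted p under 0.05, and DESeq2 27 and 21. Under total-count scaling the same counts were 19 and 25. They depended on single libraries: 94 higher and 165 lower without MMT 2, 3 and 13 without MMT 1, 14 and 32 without MMT 3, 26 and 12 without MnCl2 1, and 8 and 30 without MnCl2 2, with 0 called each time.

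The absence of calls is bounded by the intervals of the fold changes. For 688 of the 1063 tested entries the unadjusted 95% interval of the log2 fold change (MMT over MnCl2) lay within 2-fold in both directions. This held for 363 of 410 tRNA genes, 280 of 570 miRNAs and 45 of 83 piRNAs. The interval typically reached (median) to either side by 0.34 on the log2 scale for tRNA genes, 0.63 for piRNAs and 0.76 for miRNAs. For the typical miRNA a smaller difference than this leaves zero within the unadjusted interval. Larger ones also went uncalled after adjustment, such as miR-3551-5p at -1.42, so these widths are not a limit of detection. The most abundant entry, miR-29b-3p, a miRNA that represses collagen genes, shows the spread between libraries: its CPM was 35268, 27783 and 50929 in MMT 1 to 3 and 53069, 34605 and 40049 in MnCl2 1 to 3. The groups overlapped over most of their range, and its log2 fold change was -0.16 (95% interval -0.71 to 0.38).

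Positive and negative differences were spread unevenly over the classes. The median log2 fold change was -0.12 over miRNAs, of which 364 of 570 were negative, 0.11 over tRNA genes (281 of 410 positive) and 0.18 over piRNAs (58 of 83 positive), against 0.01 over all entries. Total-count scaling moved these medians to -0.21, 0.02 and 0.08, and summing entries that share sequence gave -0.19, -0.00 and 0.02. With no filter on low counts the piRNA median was -0.20, over 499 entries. The unadjusted p was under 0.05 and the level lower in MMT for 21 miRNAs (3.68%), and 0 miRNAs (0%) were on the higher side. With miRNAs alone in the fit these counts were 3 and 4, with 280 of 561 positive and a median of -0.00. For tRNA genes the counts were 24 higher (5.85%) and 3 lower (0.732%), and for piRNAs 9 higher (10.8%) and 0 lower (0%). These too turned on single libraries: the tRNA counts were 0 and 1 without MMT 1 or without MnCl2 2, 2 and 0 without MMT 3, and 66 and 24 without MMT 2. The piRNA counts were 3 and 0 without MMT 1 and 17 and 12 without MMT 2, and the miRNA counts 11 higher and 129 lower without MMT 2 and 6 and 10 without MnCl2 1. The 3 MMT libraries all lay above the 3 MnCl2 libraries for 68 tRNA genes (16.6%), 15 piRNAs (18.1%) and 11 miRNAs (1.93%), against 94 of all entries (8.84%). They all lay below for 30 miRNAs (5.26%), 6 tRNA genes (1.46%) and 1 piRNA (1.2%), against 37 of all entries (3.48%). Gene copies and overlapping piRNA entries share reads, so these counts are not of independent RNAs.

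**Figure D1:**
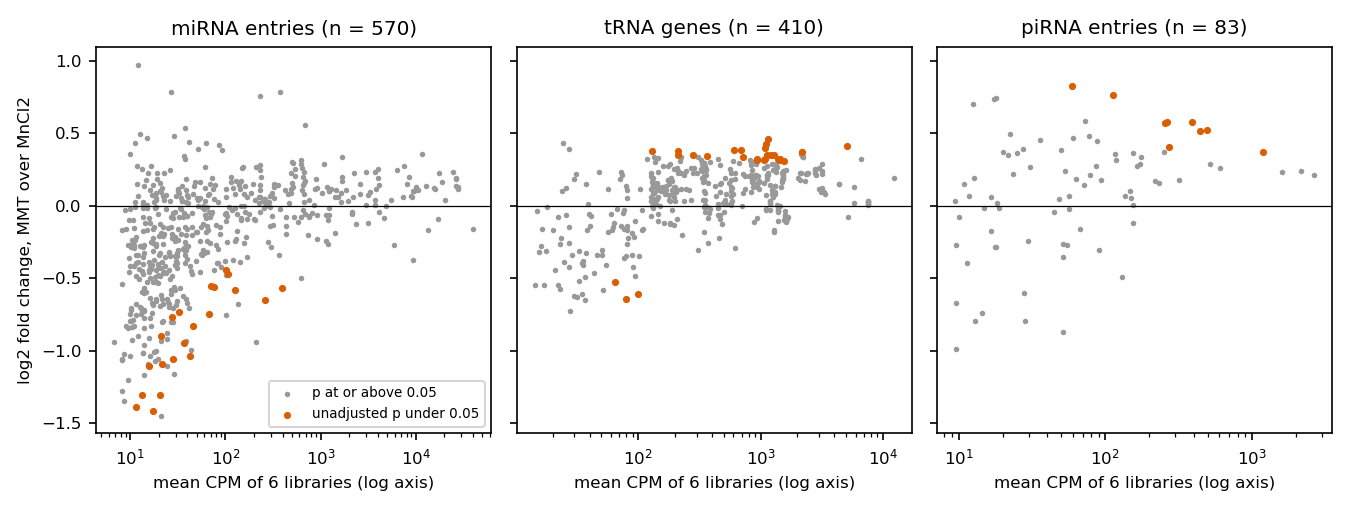
Log2 fold change of MMT over MnCl2 (vertical axis) against the mean CPM of the 6 libraries (horizontal, log axis) for the 570 miRNAs, 410 tRNA genes and 83 piRNAs tested. Orange points have an unadjusted p under 0.05, and 0 entries passed after adjustment. The scarce miRNAs sit mostly below the zero line, and the orange tRNA and piRNA points mostly above it.

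**Figure D2:**
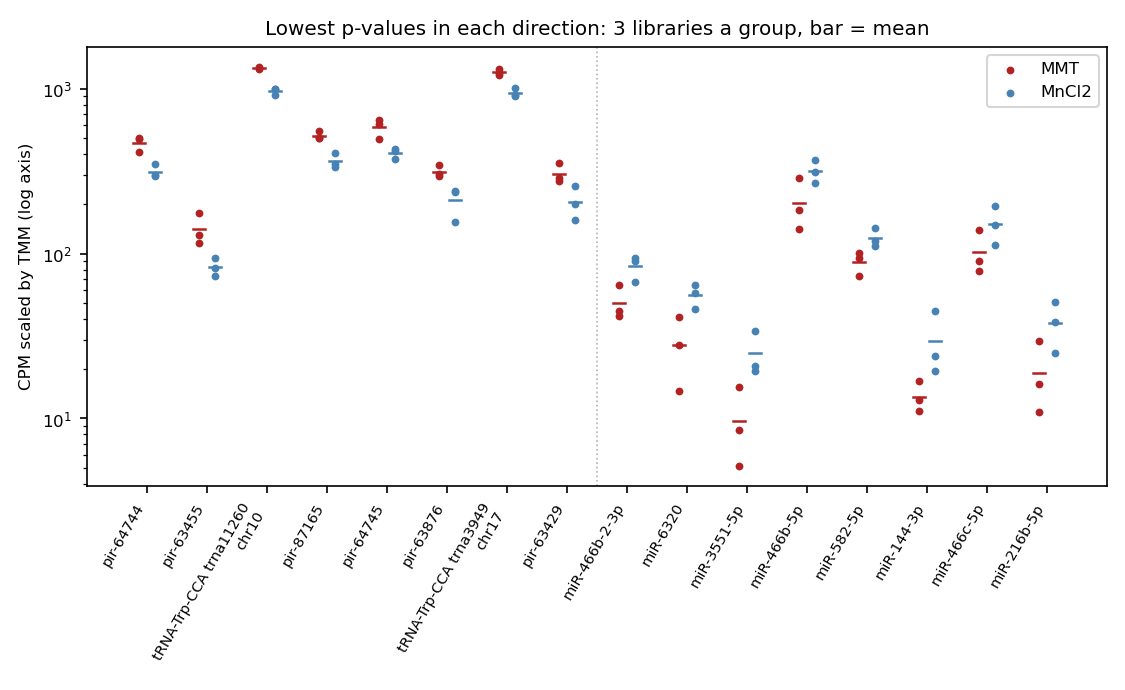
CPM (log axis) in each of the 3 MMT libraries (red) and 3 MnCl2 libraries (blue), with the group mean as a bar, for the 8 entries of lowest p in each direction. On the left the groups are apart for all 8 piRNA and tRNA entries, and on the right they overlap for miR-466b-5p, miR-466c-5p and miR-216b-5p.

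The miR-466 family gave the lowest p-value among miRNAs with a lower level in MMT. Its hairpins are repeats: those of miR-466b-1, miR-466b-2 and miR-466c lie within the Polycomb-group gene Sfmbt2 in the RefSeq annotation of GRCr8. miR-466b-2-3p was at 45.1, 64.6 and 41.6 CPM in MMT 1 to 3 and at 94.3, 90.6 and 66.9 CPM in MnCl2 1 to 3. The groups did not overlap, although MMT 2 and MnCl2 3 nearly met. The log2 fold change was -0.75 (SE 0.26), and the adjusted p of edgeR was 0.705, as for each entry named here with an unadjusted p under 0.05. miR-466b-4-3p has identical letters, so reads of these copies cannot be told apart. It was at 57.0, 71.1 and 43.8 CPM with MMT and 80.1, 102.3 and 66.9 CPM with MnCl2. There MMT 2 lay above MnCl2 3 (log2 fold change -0.55, SE 0.26), so the gap between the groups held for only 1 of the entries with this sequence.

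The other members had the same sign, with overlap between the groups. miR-466b-5p was at 184, 288 and 141 CPM with MMT and 372, 315 and 268 CPM with MnCl2, where MMT 2 lay above MnCl2 3. All 7 members tested had a negative log2 fold change, from -0.80 to -0.55 with a median of -0.65. The median of all miRNAs from 50 to 200 CPM, the range of 4 of the 7, was -0.06. The family was grouped after the values were seen, and several members share hairpins or letters, so they are not independent. Their summed level was 775, 1159 and 567 CPM with MMT and 1351, 1437 and 1032 CPM with MnCl2, and again MMT 2 lay above MnCl2 3. The median was -0.38 with the log2 total count as a covariate, -0.94 without MMT 2 and -0.40 without MMT 3 and MnCl2 1, with 0 members positive each time. The controls spread more widely than either group: miR-466b-2-3p was at 20.0, 70.4 and 101.9 CPM in the 3 corn oil libraries, scaled with all 9.

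The remaining miRNAs on the lower side were scarce. miR-6320 was at 28.1, 41.4 and 14.6 CPM with MMT and 58.1, 64.3 and 46.0 CPM with MnCl2, without overlap (log2 fold change -1.04, SE 0.38, and -0.69 without MMT 3 and MnCl2 1). miR-3551-5p, whose hairpin lies among a group of miRNA genes that includes Mir741 and Mir463, was at 8.50, 15.5 and 5.11 CPM with MMT and 19.4, 34.1 and 20.9 CPM with MnCl2 (log2 fold change -1.42, SE 0.52). Its other arm, miR-3551-3p, was at 4.25, 5.17 and 4.38 CPM with MMT and 1.29, 6.82 and 1.05 CPM with MnCl2, too few counts to be tested. The 2 arms thus lay on opposite sides, with the ranges of the 3p arm overlapping.

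miR-582-5p, from a hairpin within the phosphodiesterase gene Pde4d, was at 100.3, 73.7 and 94.2 CPM with MMT and 143.4, 112.0 and 119.2 CPM with MnCl2. All 3 MMT libraries lay below all 3 MnCl2 libraries, with a log2 fold change of -0.47 (SE 0.19). Its other arm, miR-582-3p, was at -0.43 (SE 0.24) on the same scale, with overlapping groups.

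miR-216b-5p, of a cluster best known from the pancreas, was at 16.2, 29.7 and 10.95 CPM with MMT and 38.7, 50.6 and 25.1 CPM with MnCl2, and MMT 2 overlapped MnCl2 3. Its 3p arm was at 31.5, 50.4 and 17.5 CPM with MMT and 65.9, 56.5 and 50.2 CPM with MnCl2, so that MMT 2 again reached the lowest MnCl2 library. The log2 fold changes of the arms were -1.05 (SE 0.44) and -0.83 (SE 0.37).

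miR-144-3p belongs to red blood cells, where its gene lies beside Mir451a. It was at 11.1, 12.9 and 16.8 CPM with MMT and 45.2, 19.5 and 24.1 CPM with MnCl2, with a log2 fold change of -1.09 (SE 0.45). The groups did not overlap and MnCl2 1 stood highest; without it the log2 fold change was -0.65. The 5p arm of the same hairpin was at -0.33 (SE 0.44) with overlapping groups, and miR-451-5p, the main red-cell miRNA, at -0.15 (SE 0.36). The 5 red-cell miRNAs, 4 of them tested, summed to 89.3, 113.7 and 89.1 CPM with MMT and 187.3, 89.6 and 105.6 CPM with MnCl2. The median of the 4 was -0.36 with all libraries, -0.09 without MnCl2 1, -0.69 without MMT 2 and 0.18, with 3 of 4 positive, without MMT 3 and MnCl2 1. The part of blood in these values was not tested.

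The log2 fold change of a miRNA moved with its abundance. Of the 158 miRNAs with a mean of up to 20 CPM, 26 had a positive log2 fold change and the median was -0.41. From 20 to 50 CPM it was 33 of 146 with a median of -0.30, from 50 to 200 CPM 36 of 106 with -0.06, from 200 to 1000 CPM 55 of 85 with 0.05, and above 1000 CPM 56 of 75 with 0.10. tRNA genes went the same way: the median was -0.29 over the 8 of up to 20 CPM, with 0 positive, and 0.18 over the 124 above 1000 CPM, with 100 positive.

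The scarce miRNAs did not separate the groups. Those of up to 20 CPM summed to 1623, 2987 and 1198 CPM in MMT 1 to 3 and to 2382, 2844 and 2212 CPM in MnCl2 1 to 3. MMT 2, the shallowest library, had the highest sum and MMT 3, the deepest, the lowest. The median of this bin was -0.92 without MMT 2, -0.21 without MMT 3 and -0.11 with the log2 total count as a covariate, where 60 of 158 were positive. It was -0.16 without MMT 3 and MnCl2 1. The median above 1000 CPM turned to -0.01 without MMT 3, -0.02 without MnCl2 2, -0.03 with the covariate and -0.01 under total-count scaling. Depth moves with this pattern, and its part was not tested.

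**Figure D3:**
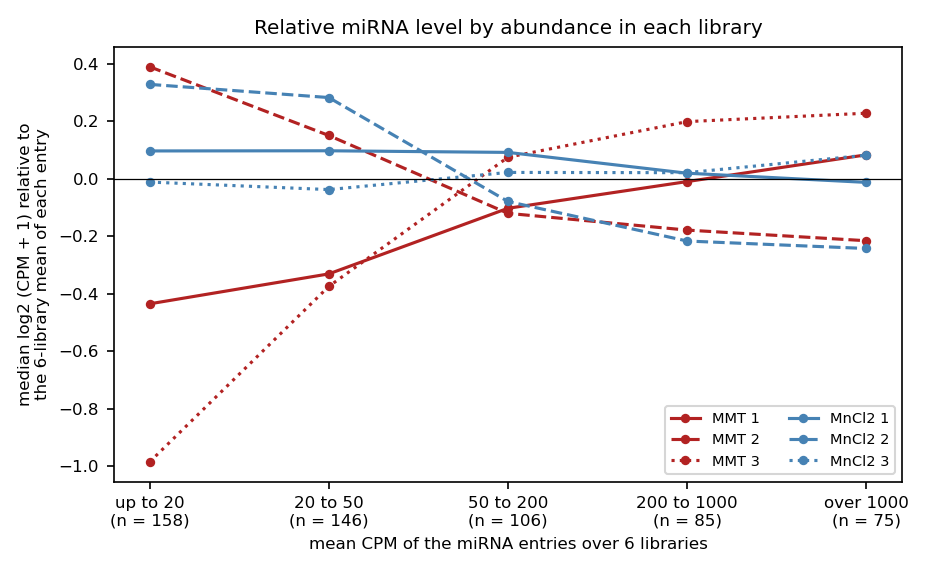
Median log2 (CPM + 1) of the miRNAs in each abundance bin relative to each entry's mean over the 6 libraries (vertical axis), by mean CPM (horizontal axis), 1 line per library, MMT in red and MnCl2 in blue. MMT 3 and MMT 1 are lowest among the scarce miRNAs, whereas MMT 2 runs with MnCl2 2 in every bin.

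Arms were also compared within hairpins, where the scarcer arm is usually degraded while the other is loaded into Argonaute. Only hairpins of the miRNAs of lowest p and of the list members were taken, not all hairpins. Of these, 169 had both arms counted in all 6 libraries. The scarcer arm was relatively lower with MMT in 109 and higher in 60. The median difference in the log2 ratio of scarcer to commoner arm was -0.14. Hairpin copies with the same arm pair account for 11 of the 169, and over the 158 distinct pairs the counts were 105 and 53. Scarce miRNAs in general had a median log2 fold change of -0.41 up to 20 CPM, against 0.10 above 1000 CPM. The part of abundance in these arm ratios was not tested. The groups did not overlap for 12 hairpins, 8 with the scarcer arm relatively lower in MMT (4.73%) and 4 with it higher (2.37%). For mir-24-2 the log2 ratio of the 3p to the 5p arm was 6.85, 6.41 and 7.19 with MMT and 5.82, 5.86 and 6.02 with MnCl2. There miR-24-3p itself was almost level (0.03, SE 0.15), and the scarce miR-24-2-5p was at 14.5, 16.8 and 13.1 CPM with MMT and 33.6, 26.3 and 23.0 CPM with MnCl2. For mir-181a-2 the log2 ratio of 3p to 5p was -4.24, -3.43 and -4.27 with MMT and -3.20, -3.01 and -3.35 with MnCl2. miR-181a-5p, the commoner arm, was at 722, 738 and 620 CPM with MMT and 558, 558 and 586 CPM with MnCl2, all 3 MMT libraries above all 3 MnCl2 libraries (log2 fold change 0.29, SE 0.14, unadjusted p = 0.0593 from edgeR). For mir-30a and mir-30e the ratios were apart by only 0.23 and 0.30 on the log2 scale. Other hairpins went the opposite way, with the 3p arm the scarcer in mir-3551, mir-667 and mir-329 and the 5p arm the scarcer in mir-376a. The log2 ratio of 3p to 5p was higher with MMT by 2.58 for mir-3551, the widest gap of the 12. It was higher by 0.95 for mir-667 and by 0.36 for mir-329, and lower by 0.22 for mir-376a. The counts of miR-3551-3p were only 5, 4 and 6 with MMT and 1, 7 and 1 with MnCl2, and its hairpin was taken for the low p of the 5p arm.

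Several entries filed as piRNAs had the lowest p-values of all, on the higher side in MMT. pir-64744 was at 501.7, 412.3 and 498.0 CPM with MMT and at 297.1, 347.7 and 300.1 CPM with MnCl2. Every MMT library exceeded every MnCl2 library, with a log2 fold change of 0.58 (SE 0.15, unadjusted p = 0.00168 and adjusted p = 0.705 from edgeR). pir-64745 was at 651, 496 and 613 CPM with MMT and 375, 433 and 418 CPM with MnCl2, and pir-87165 at 557, 501 and 503 CPM with MMT and 335, 411 and 349 CPM with MnCl2. As the printed letters show, these are 1 sequence with shifted ends, and all 3 lie whole within 8 tRNA-Val entries (anticodons AAC and CAC), from base 1 for pir-64744 and pir-64745 and base 3 for pir-87165. They therefore share reads with one another and with tRNA-Val.

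The difference shrank when the tRNA was counted in. Summed with all entries that share its sequence, the pir-64744 group was at a log2 fold change of 0.18, against 0.58 for pir-64744 alone. tRNA-Val-AAC and tRNA-Val-CAC, summed over their gene copies, were at 0.15 and 0.17. The 6 piRNA entries that share 16 bases with pir-64744 were all positive, from 0.17 to 0.58. They summed to 2334, 1904 and 2166 CPM with MMT against 1417, 1674 and 1562 CPM with MnCl2, without overlap. This group was formed after the values were seen.

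A second group, pir-63429, pir-63875 and pir-63876, carries the letters with which 5.8S ribosomal RNA begins, and pir-63455 those with which 28S ribosomal RNA begins, from general knowledge of these RNAs. pir-63876 was at 344, 297 and 305 CPM with MMT and 155, 237 and 242 CPM with MnCl2, and pir-63429 at 355, 288 and 276 CPM with MMT and 160, 200 and 257 CPM with MnCl2. MnCl2 1 was the lowest library of both, and the groups did not overlap. The log2 fold changes were 0.57 (SE 0.18) and 0.57 (SE 0.19). pir-63455 was at 177.7, 130.5 and 116.1 CPM with MMT and 73.6, 81.8 and 94.1 CPM with MnCl2 (log2 fold change 0.76, SE 0.20). Whether these reads are piRNAs, fragments of ribosomal RNA or both cannot be told from the counts. In the control libraries pir-63455 was at 168.1, 108.6 and 106.5 CPM and pir-63876 at 337, 193 and 237 CPM on the scale of all 9 libraries, and those of pir-63876 reached into the ranges of both treated groups.

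Most of the tested piRNAs overlap tRNA letters. Of 585 piRNA entries, 90 share at least 16 bases with a tRNA entry, 57 of them tested, with 45 positive and a median of 0.21. All 90 summed to 15956, 15065 and 14957 CPM with MMT and 11738, 13201 and 13500 CPM with MnCl2, all MMT libraries above all MnCl2 libraries. Of the 495 others 26 were tested, with 13 positive and a median of -0.03, and the sums of all 495 overlapped, at 2195, 2720 and 1753 CPM with MMT and 1715, 2263 and 1883 CPM with MnCl2. These groups were formed after the values were seen and were given no test.

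Among single tRNA genes, copies of tRNA-Trp-CCA, which carries tryptophan, had the lowest p-values. The copy trna11260 on chromosome 10 (rn6, 55388922 to 55388993, minus strand) was at 1337, 1358 and 1316 CPM with MMT and 1002, 916 and 999.7 CPM with MnCl2. The copy trna3949 on chromosome 17 (45701979 to 45702050, minus strand) was at 1327, 1256 and 1218 CPM with MMT and 912, 909.7 and 1006 CPM with MnCl2. The 2 copies differ by the substitution A2G, counted from 1 at the 5′ end of trna3949, and their log2 fold changes were 0.46 (SE 0.13) and 0.43 (SE 0.13). The final CCA of each entry lies outside these coordinates, since mature tRNAs have it added.

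Of the 8 tRNA-Trp-CCA genes, 7 were positive, from 0.30 to 0.46, and these 7 differ from trna3949 by at most 2 substitutions, so their reads are largely shared. The 1 other copy, trna4571 on chromosome 13 (76470386 to 76470457, minus strand), carries 9 substitutions: C6T, G12T, C16T, G25A, A42G, G50A, T51C, C62T and T64C. It was at 48.5, 63.3 and 48.9 CPM with MMT and 72.3, 89.6 and 68.0 CPM with MnCl2, below MnCl2 in every MMT library (log2 fold change -0.53, SE 0.24). It is also the scarcest copy, and tRNA genes of its abundance, 50 to 200 CPM, had a median of 0.05.

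Summing the copies of each isotype, meaning the tRNAs of 1 anticodon, gives 1 test per isotype in place of 1 per copy. Any reads counted at several copies would stay counted several times. The tRNA-Trp-CCA copies trna11260 and trna2467 both differ from trna3949 only by A2G. They were at 1358 and 1217 CPM in MMT 2, so they did not hold the same set of reads. Summed tRNA-Trp-CCA was at 10083, 9616 and 8858 CPM with MMT and 7727, 7409 and 7812 CPM with MnCl2, with a log2 fold change of 0.32 (SE 0.12, unadjusted p = 0.02). tRNA-Leu-TAG, a leucine tRNA with 1 gene, was at 5949, 5497 and 5549 CPM with MMT and 4069, 4400 and 4760 CPM with MnCl2 (log2 fold change 0.36, SE 0.12, unadjusted p = 0.0124), the lowest p among isotypes. tRNA-Pro-TGG, a proline tRNA with 6 genes, was at 2533, 2263 and 2630 CPM with MMT and 2108, 2059 and 2103 CPM with MnCl2 (log2 fold change 0.24, SE 0.12). In all 3 isotypes each MMT library lay above each MnCl2 library, and the adjusted p of edgeR over the 705 summed entries tested was 0.858.

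Over 52 isotypes and mitochondrial tRNAs, 37 log2 fold changes were positive and 15 negative, with a median of 0.09. edgeR called 0 of the 705 (0%), of which 9 higher (1.28%) and 19 lower (2.7%) had an unadjusted p under 0.05, and among the 52 that p was reached by 2 isotypes on the higher side (3.85%) and 0 on the lower (0%). MMT lay wholly above MnCl2 for 13 (25%) and wholly below for 0 (0%). The 95% interval lay within 2-fold for 49 of the 52 and within 1.5-fold for 44. The lowest p-values on the negative side belonged to tRNA-Ala-GGC (-0.24, SE 0.23), tRNA-Phe-AAA (-0.37, SE 0.39) and tRNA-Phe-GAA (-0.10, SE 0.13), each with overlapping groups, and without MMT 3 they were at -0.06, -0.05 and -0.04. Of the mitochondrial tRNAs, tRNA-mt-Gln-TTG was at 12027, 12703 and 13670 CPM with MMT and 11223, 11680 and 12020 CPM with MnCl2, just apart (log2 fold change 0.14, SE 0.12). tRNA-mt-Leu-TAA overlapped (-0.13, SE 0.19).

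**Figure D4:**
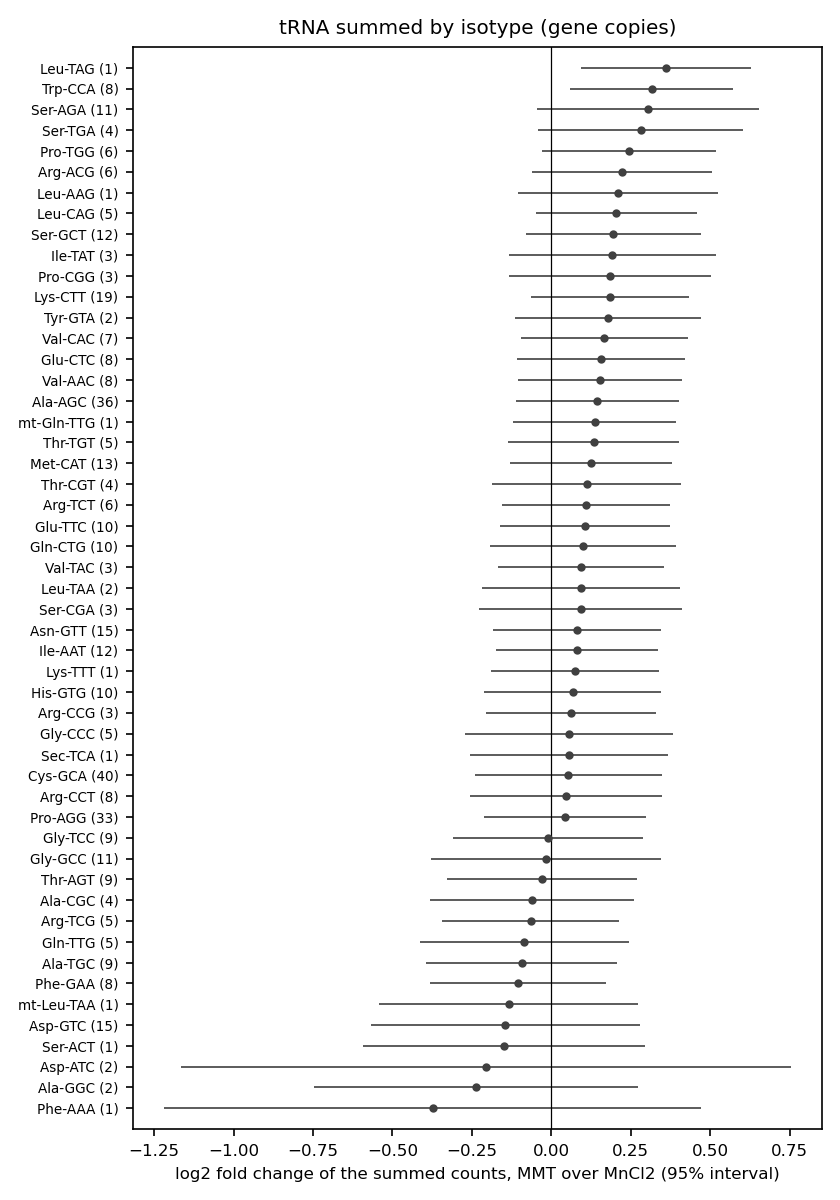
Log2 fold change of MMT over MnCl2 (horizontal axis) with its unadjusted 95% interval for the 51 isotypes and mitochondrial tRNAs with a known anticodon, gene copies in brackets. tRNA-Leu-TAG and tRNA-Trp-CCA are the 2 whose intervals lie above zero, at 0.36 and 0.32.

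The miRNAs of striatal neurons and of the pathways most often named for manganese showed small differences. In these bulk samples fewer cells of a type and less RNA per cell cannot be told apart. Of 25 lists with 313 members, 260 were tested and edgeR called 0 in every list. 5 members had all MMT libraries above all MnCl2 libraries and 12 had them all below, against 1.93% and 5.26% of all miRNAs tested. The neuron list (miR-124, miR-128, miR-137, miR-138 and miR-218) had 6 of 10 tested members positive and a median of 0.08. miR-128-3p, an abundant neuronal miRNA, was at 21316, 16850 and 21221 CPM with MMT and 16298, 16858 and 19754 CPM with MnCl2, overlapping, at 0.17 (95% interval -0.24 to 0.57). miR-132-3p, which neuronal activity induces through CREB, was at 748, 697 and 688 CPM with MMT and 519, 655 and 736 CPM with MnCl2, at 0.16 (-0.17 to 0.49).

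miR-7 and miR-153 are known to repress alpha-synuclein. Their list also holds the other arms of the hairpins, such as miR-7a-2-3p (log2 fold change -0.58, SE 0.37), and had 3 of 6 positive. miR-7a-5p was at 23167, 21741 and 34367 CPM with MMT and 20734, 17922 and 28913 CPM with MnCl2, at 0.23 (95% interval -0.28 to 0.74). miR-153-3p was at 4069, 3572 and 5790 CPM with MMT and 5660, 4013 and 4592 CPM with MnCl2, at -0.09 (-0.51 to 0.34). Neither pair of groups was apart. The miR-9 family, which acts in neural progenitors and neurons, had 4 of 4 positive with a median of 0.12, which turned to -0.02 without MnCl2 2 and -0.03 with the total as a covariate. Its members are antisense to one another, miR-9a-5p to miR-9b-3p and miR-9a-3p to miR-9b-5p, so they may not be independent. In MMT 1, miR-9a-5p was at 30834 CPM and miR-9b-3p at 30890 CPM.

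Among the large families the medians lay near zero. let-7, which restrains growth and cell division, had 11 of 17 positive (median 0.07), miR-30 had 6 of 11 (0.01), miR-181 5 of 10 (0.03), miR-99 with miR-125 6 of 9 (0.02), the miR-23, miR-24 and miR-27 clusters 5 of 10 (-0.02), miR-29 3 of 7 (-0.06) and miR-17/92 7 of 19 (-0.08). The imprinted Dlk1-Dio3 cluster, a large block of neuronal miRNAs, had 27 of 70 positive (-0.05). With single libraries left out these 8 medians ran from -0.37 to 0.14, and each but that of Dlk1-Dio3 changed sign. miR-34a-5p, a target of p53, was at 2226, 1335 and 2017 CPM with MMT and 1695, 1394 and 1344 CPM with MnCl2, overlapping, at 0.33 (95% interval -0.06 to 0.73). The hypoxia and miR-320 lists each had 1 tested member, at 0.11 and -0.10. miR-18a-5p of the miR-17/92 list was at 42.5, 24.6 and 35.1 CPM with MMT and 19.4, 19.5 and 20.9 CPM with MnCl2, apart, at 0.78 (SE 0.37, unadjusted p = 0.0537 from edgeR).

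The list of miR-130 and miR-301 holds both arms of their hairpins, and had 0 of 7 positive and a median of -0.65. Only its 3p arms share the seed printed for miR-301a-3p and miR-301b-3p. Among these, miR-130a-3p was at -0.14 (SE 0.28), with overlapping groups. miR-301b-3p was at 23.0, 24.6 and 26.3 CPM with MMT and 37.5, 46.8 and 38.7 CPM with MnCl2, apart, at -0.73 (SE 0.33). The abundant member with the same seed, miR-301a-3p, was at 1208, 1048 and 1683 CPM with MMT and 1927, 1131 and 1429 CPM with MnCl2, overlapping, at -0.19 (SE 0.22). The list's median CPM was 32.8, in the range where the median of all miRNAs was -0.30. Its median was -0.33, with 3 of 7 positive, without MnCl2 1, and -0.22 without MMT 3 and MnCl2 1.

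Markers of other cell types were mostly scarce miRNAs. The epithelial list had 1 of 10 positive (median -0.58, median CPM 27.4), the muscle list 1 of 9 (-0.72, 15.7), the hindbrain Hox list 0 of 6 (-0.44, 22.7), the immune list 4 of 11 (-0.27, 102.8) and the miR-34 and miR-449 list 3 of 9 (-0.32, 18.7). Over the same members, the epithelial median was -1.13 without MMT 2, -0.36 without MnCl2 1 and -0.19 without MMT 3 and MnCl2 1, and the Hox median -0.80 without MMT 2. The immune median was -0.04 without MMT 1, -0.07 without MMT 2, 0.00 without MnCl2 1 and -0.43 without MnCl2 2. The miR-34 and miR-449 median was -0.79 without MMT 2, -0.13 without MnCl2 1 and -0.00 without MMT 3 and MnCl2 1. No member of any list was at 0 in all 6 libraries. miR-1-3p of muscle was at 11.9, 12.9 and 10.95 CPM with MMT and 14.2, 61.4 and 11.5 CPM with MnCl2, with MnCl2 2 alone high and a log2 fold change of -1.30. The muscle median was -0.15 without MnCl2 2. The vascular list had 1 of 7 positive (-0.37), and its main member miR-143-3p, of smooth muscle, was at 8654, 7445 and 8474 CPM with MMT and 16756, 7210 and 7897 CPM with MnCl2. Without MnCl2 1, which held the highest value, 7 of 7 were positive and the median was 0.13, and it was -0.64 without MnCl2 2 and -0.58 without MnCl2 3. Oligodendrocyte miRNAs had 3 of 5 positive (0.04) and liver miRNAs 1 of 4 (-0.03).

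Choroid plexus miRNAs, of a tissue that lies within the ventricle beside the striatum, set single libraries apart. They summed to 480, 563 and 4005 CPM in MMT 1 to 3 and to 2232, 519 and 751 CPM in MnCl2 1 to 3. Of the 8 tested, 3 were higher with MMT and 5 lower (median -0.32, median CPM 43.3). The main one, miR-204-5p, was at 237, 207 and 1975 CPM with MMT and 1071, 223 and 366 CPM with MnCl2. MMT 3 and MnCl2 1 were high and the groups overlapped, with a log2 fold change of 0.56 (95% interval -2.81 to 3.93). With MMT 3 and MnCl2 1 both left out, edgeR called 0 of 1104 entries, and the unadjusted p was under 0.05 for 12 higher and 13 lower ones. pir-63455 was then at 0.83, tRNA-Trp-CCA summed at 0.38, miR-3551-5p at -1.23 and miR-466b-5p at -0.32. The part of tissue taken with the striatum was not tested beyond these values.

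**Figure D5:**
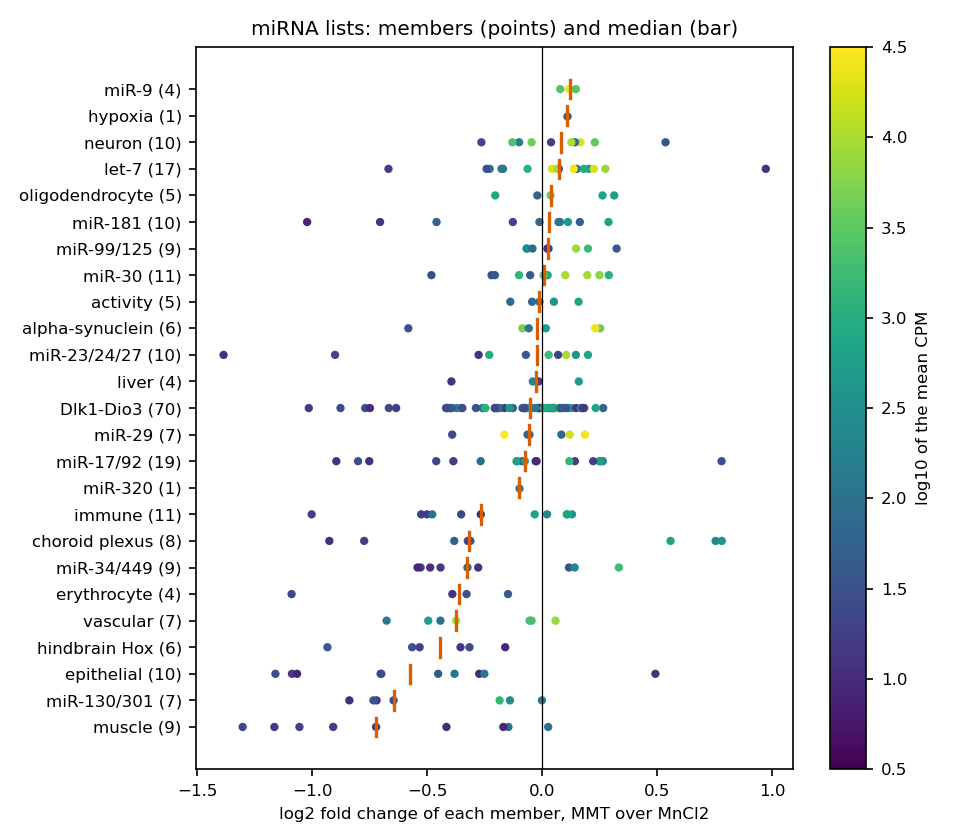
Log2 fold change of MMT over MnCl2 (horizontal axis) for each tested miRNA of the 25 lists (points, coloured by the log10 of mean CPM) with the list's median as an orange bar and the number tested in brackets. The abundant members lie close to zero, and the lists with the lowest medians, muscle (-0.72) and miR-130 with miR-301 (-0.65), hold mostly scarce members.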

How the data were processed

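Per the labels' protocols, the striatum was lysed in TRIzol, fragments of 15 to 45 nucleotides were cut from a gel, and the QIAseq miRNA kit was used for the libraries. The submitters' processing notes name Trimmomatic and rn6. Not given in the sources used here are the aligner, the strand setting and whether molecular identifiers were collapsed. The authors deposited raw read counts per entry, 1 file per library, with the entry's sequence. Reads shared by entries may be split or repeated.

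Counts of the 6 libraries were filtered (filterByExpr) and scaled (TMM), and tested with edgeR 4.0.16 (quasi-likelihood, robust) in R 4.3.3. Fold changes are MMT over MnCl2, and 95% intervals are unadjusted. tRNA copies were also summed by isotype, and library measures compared by exact permutation over 20 arrangements. Partners share 16 bases. DESeq2 1.42.0, other scalings, filters and sample sets were alternatives. The fits were tested on simulated data.

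Members and lists were chosen with earlier results of these data known, and 2 list patterns (miR-29, miR-34 with miR-449) were corrected once the entry names were seen. Named entries were the 8 of lowest p in each direction, their other arms, antisense partners and shared seeds or copies, the 5 most abundant, per list the 2 most abundant and the lowest p, and the 3 isotypes of lowest p in each direction. Of the 764 miRNA names, 687 matched RefSeq (GRCr8), used for neighbouring genes only.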

Additional observations from a re-analysis of the deposited data

How the results depend on the processing

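edgeR called 0 entries under each alternative that was run, and DESeq2, run once on the same 6 libraries, also 0. At an unadjusted p under 0.05 the 33 higher entries became 19 under total-count scaling, 14 with no filter, 15 with all 9 libraries, 4 with miRNAs alone, 9 with shared sequence summed, 19 with the log2 total as covariate, and 12 without MMT 3 and MnCl2 1 (chosen after seeing the data), and ran from 3 to 94 as single libraries were left out. The 24 lower entries became 56 with no filter, 7 with all 9 libraries, 3 with miRNAs alone, 15 with the covariate and 13 without MMT 3 and MnCl2 1, and ran from 12 to 165. With the replicate number as a block they were 67 higher and 41 lower. Whether the numbers pair the libraries cannot be told: deviations of same-numbered libraries correlated at -0.19, 0.49 and 0.28. MMT 2 correlated best with MnCl2 2 and MMT 3 with MnCl2 3, while MMT 1 correlated best with MnCl2 3 (0.29). The count of intervals within 2-fold was 287 with miRNAs alone, since fewer entries are tested there. The miRNA share (percent, MMT minus MnCl2) ran from -3.12 to 0.879 over single libraries left out, the tRNA share from -0.961 to 2.85 and the nuclear tRNA share from -0.963 to 2.76. The mitochondrial tRNA share ran from -0.109 to 0.0965, and was -0.00151 without the most abundant entry and -0.185 without MMT 3 and MnCl2 1; the cause of these shifts was not tested. The 16 entries of lowest p kept their sign under each alternative that held them, with a lowest adjusted p of 0.0801, without MMT 2. These 16 were chosen by p in the same libraries, so the kept sign is no independent check. Of entries of up to 20 CPM, 2 of 158 miRNAs, 0 of 8 tRNA genes and 1 of 21 piRNAs had an interval within 2-fold.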
